A study of Homo sapiens with 36 samples.

Results

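Transcripts of 9 transcription factors that specify or maintain the intestinal epithelium were followed in 2 colorectal cancer cell lines under chemical hypoxia. They were CDX1, CDX2, HNF4A, HNF4G, GATA4, GATA6, KLF4, KLF5 and PRDM1, taken by symbol for their known roles in the gut, at a time when earlier results of these data were known. All 9 were present among the 60591 genes of the mRNA count table. The low-count filter left 8 of them testable in Caco-2 and 8 in HT-29.

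The mRNA libraries numbered 18, with 3 replicates in each of 6 groups formed by line and treatment. Caco-2 is a colorectal adenocarcinoma line that turns enterocyte-like on prolonged culture, and here it had been kept under differentiation conditions for 21 days. HT-29 is a second colorectal adenocarcinoma line, for which the labels give no differentiation step, so line and culture state cannot be told apart. Treatment lasted 24 hours, with either CoCl2 at 300 µM or an oxyquinoline derivative (OD, labelled Oxy) at 5 µM. Control cells are labelled as untreated, with DMSO at 0.5 µl per ml of medium. OD cells are labelled with the same amount of DMSO. The labels give the CoCl2 stock as made in water and name no DMSO for that group. The methods of the study, which describe Caco-2 only, instead give DMSO at 0.5% for all groups, CoCl2 included. The sources thus differ on the amount of DMSO, and the solvent of the CoCl2 group is not settled. Both agents serve as chemical mimics of hypoxia, stabilising the hypoxia-inducible factor (HIF) by acting on the enzymes that target it for breakdown. No genetic change was made, the 2 agents were used at different doses, and each line is a single tumour-derived culture. The design text calls the replicates biological but gives no separate cultures, so the p-values measure the spread between these samples.

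The intestinal lineage is held by a small network of DNA-binding proteins. CDX1 and CDX2 are caudal-type homeobox factors that set intestinal identity, and the nuclear receptors HNF4A and HNF4G drive brush border and lipid handling genes in enterocytes. GATA4 and GATA6 are zinc finger factors of the gut endoderm, with GATA4 normally found in the proximal small intestine. KLF5 is the Krüppel-like factor of proliferating crypt cells, KLF4 that of differentiated cells that have left the cycle, and PRDM1 (BLIMP1) is a repressor best known from the fetal gut and from plasma cells.

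Libraries held 12925719 to 22332639 counts, so that 3 counts, taken as the floor, corresponded to 0.134 to 0.232 counts per 1000000 library counts (CPM). All intervals for single counts cover counting error only. Levels within a line are CPM after TMM scaling, which sets library sizes so that most genes are level between libraries. Leaving this scaling out moved the median log2 change over all genes in Caco-2 by -0.32 (CoCl2) and -0.15 (OD), and in HT-29 by -0.63 (CoCl2) and -0.14 (OD). For the factors, values on library size alone are therefore given with each CoCl2 change against control. Elsewhere they are given where they change a call or a direction. The 5 epithelial markers (EPCAM, CDH1, KRT8, KRT18 and KRT19) were detected in all 6 groups, and their summed level moved with treatment. It was 4096 to 4260 CPM in Caco-2 controls, 7338 to 8293 with CoCl2 (KRT8, KRT18 and KRT19 called higher) and 5655 to 6050 with OD. In HT-29 it was 5100 to 5168, 7132 to 7603 (KRT19 called higher) and 6378 to 6957 CPM. The part of these marker changes in the results for the factors was not tested. The summed level of the 5 enterocyte markers was 1250 to 1383 CPM in Caco-2 controls. It was 714 to 777 with CoCl2 (SI called lower and APOA4 higher) and 1373 to 1416 with OD (APOA4 called higher). In HT-29 it was 245 to 249, 43.7 to 51.0 and 112 to 117 CPM, with 3 of the 5 detected, so the enterocyte label rests on few markers in that line. Known HIF targets moved with both agents. EGLN3, VEGFA, ADM and BNIP3 were all called higher with CoCl2 in Caco-2, and 2 of these 4 with OD. With CA9 added, which was too low to test in Caco-2, 4 of 5 were called higher with CoCl2 and 3 of 5 with OD in HT-29.

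Across the factors, a call needed both an edgeR false discovery rate (FDR, over all genes tested) below 0.05 and a log2 change larger than 1 in size. A gene that passed the FDR alone is described as having risen or fallen, with its size. With CoCl2 in Caco-2, 2 of 8 tested factors were called, GATA4 and PRDM1, both lower, beside 23.4% of all 16034 genes (9.13% higher, 14.2% lower). At the FDR alone 4 factors rose and 3 fell, where 64.7% of all genes passed (31.6% higher, 33.1% lower). With OD in Caco-2, KLF4 was the 1 of 8 called, higher, beside 11.7% of all genes (4.43% higher, 7.27% lower). At the FDR alone 3 factors rose and 1 fell, beside 50.4% of all genes (25.7% higher, 24.7% lower). In HT-29, CoCl2 gave 4 of 8 calls, with CDX1, CDX2 and HNF4G lower and PRDM1 higher, beside 41.3% of all 15812 genes (17.4% higher, 23.9% lower). On library size alone this count was 6, with HNF4A and KLF5 also lower, beside 7545 of the 15812 genes (1295 higher, 6250 lower). At the FDR alone 2 rose and 6 fell, beside 82.8% of all genes (40.7% higher, 42.2% lower). OD in HT-29 gave 1 call of 8, PRDM1 higher, beside 17.1% of all genes (9.5% higher, 7.57% lower). Here 3 rose and 4 fell at the FDR alone, beside 68.8% (34.7% higher, 34% lower). The share of factors called was thus near that of all genes in each comparison with control. The median log2 change of the tested factors in Caco-2 was 0.15 under CoCl2 and 0.07 under OD, and in HT-29 it was -0.67 and -0.32, with the median of all genes between -0.03 and 0.01. Groups of 3 libraries were compared in every case.

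**Figure D1:**
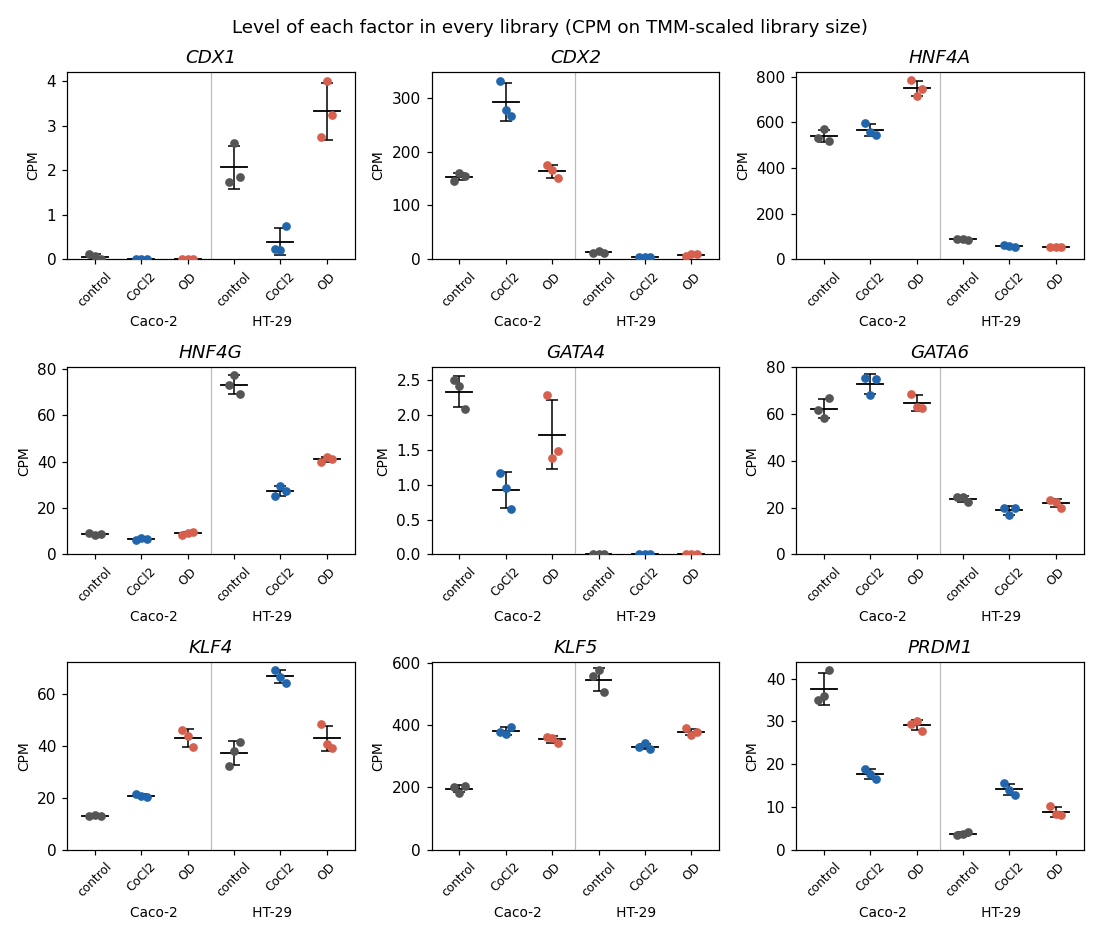
CPM (TMM-scaled within each line) of each factor in all 18 mRNA libraries. Points are libraries, horizontal lines means and bars SD of 3 replicates. CDX2 is higher with CoCl2 than in controls in Caco-2 and lower in HT-29, GATA4 has 0 counts in all 9 HT-29 libraries, and CDX1 has at most 2 counts in any Caco-2 library.

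The promoters of 3 factors with contrasting responses are shown first, as 250 bases before the annotated start site, written 5′ to 3′ on the gene's strand (RefSeq, GRCh38.p14). KLF4 had the only call with OD in Caco-2, while CDX2 and PRDM1 moved in opposite directions in the 2 lines with CoCl2. KLF5 also moved in opposite directions, with both agents, and is not shown. Capitals mark matches on either strand to ACGTG or GCGTG, the core letters of the HIF response element.
KLF4, chr9:107489770-107490019, minus strand: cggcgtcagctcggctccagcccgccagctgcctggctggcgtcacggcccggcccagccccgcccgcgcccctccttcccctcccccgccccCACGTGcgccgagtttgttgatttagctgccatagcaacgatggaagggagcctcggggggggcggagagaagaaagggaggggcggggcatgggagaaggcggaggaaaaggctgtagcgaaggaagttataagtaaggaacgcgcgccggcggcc
PRDM1, chr6:106086086-106086335, plus strand: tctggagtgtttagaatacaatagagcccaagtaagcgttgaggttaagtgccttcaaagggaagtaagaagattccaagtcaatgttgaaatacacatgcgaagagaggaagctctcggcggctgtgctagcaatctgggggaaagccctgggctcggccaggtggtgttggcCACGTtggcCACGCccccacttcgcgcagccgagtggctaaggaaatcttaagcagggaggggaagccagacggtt
CDX2, chr13:27969316-27969565, minus strand: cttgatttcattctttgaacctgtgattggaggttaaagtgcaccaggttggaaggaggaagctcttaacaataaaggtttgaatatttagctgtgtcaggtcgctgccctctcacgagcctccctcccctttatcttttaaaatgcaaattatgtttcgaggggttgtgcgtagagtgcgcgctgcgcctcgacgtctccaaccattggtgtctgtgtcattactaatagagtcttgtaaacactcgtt
The KLF4 match is a palindrome that counts once on each strand, beginning 157 and 156 bases before the start site, and this PRDM1 window had ACGTG at -76 and GCGTG at -67. A second PRDM1 window, from an alternative start site, held neither. The CDX2 stretch printed holds neither, but in the 50 bases after the start site CDX2 had GCGTG at 31 and KLF4 a further ACGTG at 26. For KLF5, the upstream window held neither and the second window had ACGTG at 15. RefSeq windows of 300 bases, which run 50 bases past the start site, were found for 6 of the 9 factors, 9 windows in all. ACGTG was in 3 of the 9 and GCGTG in 2 of the 9, where of all 35116 windows of this length 21.4% held ACGTG and 36.5% held GCGTG. An HNF4 motif (CAAAGTCCA, in 0.384% of all windows) and a CDX motif (TTTATG, in 10.6%) were in none of the 9. The GATA motif AGATAA, in 10.3% of all windows, was found in CDX2 at -119 and in the upstream HNF4A window at -26. The Krüppel-like motif CACCC was in 6 of the 9 and in 59.9% of all windows. These matches are letters only, and binding was not measured.

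The caudal factors differed between the lines before any treatment. CDX1 (chromosome 5, 150166778 to 150184558, plus strand, GRCh38 with GENCODE v44) had 2, 1 and 0 counts in the Caco-2 controls and 0 in all 6 treated Caco-2 libraries. It was therefore at or under the floor in Caco-2, and no change could be tested there. In HT-29 its counts were 27, 48 and 49 in controls, 3, 3 and 9 with CoCl2, and 53, 69 and 61 with OD. All 3 CoCl2 libraries were below all 3 controls, and all 3 OD libraries had more CDX1 than any control on the CPM scale (2.74 to 4.02 against 1.74 to 2.62). CDX1 was called lower with CoCl2, at a log2 fold change of -2.43 ± 0.373 (SE, FDR 1.32e-06), and at -3.06 on library size alone. With 2 of the 3 CoCl2 libraries at the floor, the ratio of pooled control to CoCl2 counts was 5.91, with an exact 95% interval of 3.45 to 10.9. With OD it rose by 0.69 ± 0.212 (FDR 0.00578), a change whose FDR was 0.0682 in DESeq2. The difference of CoCl2 from OD was -3.12 (FDR 5.11e-09), the only call among the factors between the agents in HT-29.

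CDX2 (chromosome 13, 27960918 to 27969315, minus strand), the partner of CDX1 and the main keeper of intestinal identity in the adult, was at 146, 160.0 and 154 CPM in Caco-2 controls. It was at 332, 278 and 267 CPM with CoCl2 and at 175, 165 and 151 CPM with OD. Every CoCl2 library was above every other Caco-2 library, while OD and control overlapped. CDX2 rose with CoCl2 by 0.93 ± 0.0836 log2 units (FDR 7.92e-10), just short of the fold limit, and by 0.61 on library size alone. For OD the change was 0.09, with a 95% interval of -0.08 to 0.27 and an FDR of 0.361, and its sign turned on library size alone (-0.061). In HT-29 the levels were 12.3, 14.5 and 11.7 CPM in controls, 4.33, 4.77 and 4.77 with CoCl2, and 6.26, 9.19 and 9.10 with OD. There the 3 groups did not overlap, with control highest and CoCl2 lowest. CDX2 was called lower with CoCl2 (-1.46 ± 0.144, FDR 5.15e-10) and fell with OD by 0.65 (SE 0.121, FDR 3.77e-05). On library size alone the CoCl2 change was -2.10. Thus CDX2 rose with CoCl2 in one line and fell in the other.

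The HNF4 receptors were balanced differently in the 2 lines. HNF4A (chromosome 20, 44355699 to 44432845, plus strand) measured 529.8, 568 and 519.8 CPM in Caco-2 controls, 597, 559 and 545 with CoCl2, and 784, 717 and 745 with OD. Only the OD libraries stood clear of the controls. HNF4A rose with OD by 0.47 ± 0.0718 (FDR 6.80e-06). The CoCl2 change was 0.07, with an interval of -0.08 to 0.22 (FDR 0.387), and on library size alone it was -0.25 (FDR 0.00214). In HT-29, HNF4A was at 89.6, 86.8 and 84.1 CPM in controls, 60.2, 57.0 and 52.0 with CoCl2, and 53.1, 55.5 and 55.6 with OD. Both agents left every library below every control, and their ranges overlapped. It fell by 0.62 with CoCl2 (SE 0.0548, FDR 6.15e-11), a change that was called at -1.25 on library size alone, and by 0.66 with OD (SE 0.0532, FDR 1.91e-11). The difference of CoCl2 from OD was 0.05, with an interval of -0.07 to 0.16, and its sign changed with the scaling, being -0.45 on library size alone.

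HNF4G (chromosome 8, 75407914 to 75566834, plus strand), the second receptor of this pair, was low in Caco-2. It was at 9.31, 8.52 and 8.79 CPM in controls, 6.08, 7.19 and 6.49 with CoCl2 and 8.47, 9.43 and 9.46 with OD. CoCl2 libraries lay below the rest and OD overlapped the controls. HNF4G fell with CoCl2 by 0.43 (SE 0.144, FDR 0.0119; -0.75 on library size alone), and the OD change was 0.04, with an interval of -0.25 to 0.32, and -0.11 on library size alone. In HT-29 it was at 73.1, 77.2 and 69.1 CPM in controls, 24.9, 29.5 and 27.5 with CoCl2, and 39.9, 42.0 and 41.1 with OD. No 2 of these groups overlapped. HNF4G was called lower with CoCl2 (-1.42 ± 0.0640, FDR 3.16e-17) and fell with OD by 0.83 (SE 0.0580, FDR 1.16e-12). On library size alone the CoCl2 change was -2.05. CoCl2 libraries were lower than OD libraries (-0.58, SE 0.0675, FDR 1.43e-08), a difference that was called at -1.08 on library size alone, as was that of CDX2 (-0.82, and -1.31 on library size alone).

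Per kilobase of exon, HNF4G made up 3.08 to 3.59% of the summed HNF4A and HNF4G level in Caco-2 controls, 2.11 to 2.65% with CoCl2 and 2.24 to 2.71% with OD. In HT-29 it was 63.4 to 65.3% in controls, 46.8 to 52.8% with CoCl2 and 61.1 to 61.6% with OD. The share was thus lower in every treated library than in every control library of its line, and in HT-29 it was lowest with CoCl2. These shares depend on the exon model, because the deposited values imply a shorter HNF4A than the exon union used here. With the deposited values the HT-29 control share averaged 56.2% ± 1.16 (SD, n = 3) in place of 64.1% ± 1.09.

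GATA4 (chromosome 8, 11676959 to 11760002, plus strand) was a low transcript of Caco-2. Its counts were 43, 36 and 30 in controls, 14, 13 and 12 with CoCl2 and 34, 23 and 21 with OD, or 2.50, 2.41 and 2.08 CPM, 1.17, 0.94 and 0.65 CPM, and 2.29, 1.38 and 1.48 CPM. The CoCl2 libraries lay below all others, while OD overlapped the controls. GATA4 was called lower with CoCl2 (-1.38 ± 0.327, FDR 0.000718, and -1.70 on library size alone). The OD change of -0.45 had an interval of -1.05 to 0.16 (FDR 0.207). All 9 HT-29 libraries held 0 counts of GATA4, so it was at least 14.0-fold higher in Caco-2 than in HT-29 controls when each HT-29 library is set to 3 counts. The bound was 4.12-fold with CoCl2 and 10.0-fold with OD.

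GATA6 (chromosome 18, 22169589 to 22202528, plus strand), its relative in gut endoderm, changed by small amounts. It was at 61.8, 58.5 and 66.7 CPM in Caco-2 controls, 75.6, 68.0 and 75.0 with CoCl2 and 68.5, 63.1 and 62.4 with OD. The CoCl2 libraries were above the controls by a narrow margin. GATA6 rose with CoCl2 by 0.23 ± 0.0814 (FDR 0.0184). That FDR was 0.0591 without control replicate 1, 0.103 without control replicate 2 and 0.0603 without CoCl2 replicate 3, and the change was -0.10 on library size alone. The OD change was 0.05, with an interval of -0.12 to 0.22. In HT-29 GATA6 was at 24.7, 24.4 and 22.3 CPM in controls, 19.9, 16.7 and 20.0 with CoCl2 and 23.4, 22.5 and 20.0 with OD. CoCl2 libraries again did not overlap the controls, now from below. It fell with CoCl2 by 0.33 (SE 0.0845, FDR 0.000819), and the OD change was -0.11, with an interval of -0.27 to 0.05. On library size alone these were -0.97 and -0.24 (FDR 0.00817).

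Among the Krüppel-like factors, KLF4 (chromosome 9, 107484852 to 107490482, minus strand) rose in both lines with CoCl2. It was at 12.8, 13.5 and 13.0 CPM in Caco-2 controls, 21.5, 20.7 and 20.1 with CoCl2 and 45.9, 43.6 and 39.3 with OD. The 3 groups were fully separate, with OD highest. KLF4 was called higher with OD (1.71 ± 0.102, FDR 1.15e-12) and rose with CoCl2 by 0.66 ± 0.106 (FDR 7.45e-06), or by 0.34 on library size alone. The difference of CoCl2 from OD was -1.05 ± 0.0979 (FDR 4.15e-09), called in the full set and at -0.99 without OD replicate 1. In HT-29 the CoCl2 group was the highest. KLF4 was at 32.1, 38.0 and 41.5 CPM in controls, 69.3, 66.3 and 64.3 with CoCl2 and 48.4, 40.7 and 39.2 with OD. CoCl2 libraries stood above all others and OD overlapped the controls. It rose with CoCl2 by 0.83 ± 0.0766 (FDR 1.48e-10), but by 0.20 on library size alone (FDR 0.0180). CoCl2 exceeded OD by 0.64 (FDR 2.43e-08), a difference that did not pass on library size alone (0.14, FDR 0.0807). The OD change of 0.19 (FDR 0.0325) had an FDR of 0.117 in DESeq2, 0.543 on library size alone, 0.233 without control replicate 1, 0.055 without control replicate 2 and 0.342 without OD replicate 1.

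KLF5 (chromosome 13, 73054976 to 73077541, plus strand) was among the most abundant factors in both lines. It was at 200.4, 183 and 206 CPM in Caco-2 controls, 377, 372 and 395 with CoCl2 and 364, 359 and 343 with OD. Both agents separated fully from the controls. KLF5 rose with CoCl2 by 0.96 ± 0.0713 (FDR 2.71e-11; 0.64 on library size alone) and with OD by 0.85 ± 0.0712 (FDR 5.88e-10). The difference between the agents was 0.10, with an interval of -0.04 to 0.25, and on library size alone it was -0.065. In HT-29 KLF5 was at 558, 577 and 507 CPM in controls, 329.6, 342 and 324 with CoCl2 and 389.8, 368 and 378 with OD. Here the controls were the highest group and CoCl2 the lowest. It fell with CoCl2 by 0.72 (SE 0.0487, FDR 2.07e-13) and with OD by 0.53 (SE 0.0482, FDR 2.38e-10). On library size alone the CoCl2 change was called, at -1.35.

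PRDM1 (chromosome 6, 105993463 to 106109939, plus strand) moved opposite to KLF5 in both lines. It was at 35.0, 35.8 and 41.9 CPM in Caco-2 controls, 18.8, 17.6 and 16.6 with CoCl2 and 29.5, 30.1 and 27.7 with OD. The 3 groups did not overlap, with CoCl2 lowest. PRDM1 was called lower with CoCl2 (-1.09 ± 0.103, FDR 1.66e-09, and -1.41 on library size alone). It fell with OD by 0.37 (SE 0.0982, FDR 0.00326). In HT-29 it was at 3.29, 3.72 and 4.17 CPM in controls, 15.5, 13.8 and 12.8 with CoCl2 and 10.2, 8.32 and 8.09 with OD. Again no groups overlapped, but with the controls lowest. PRDM1 was called higher with CoCl2 (1.89 ± 0.129, FDR 2.43e-13, and 1.26 on library size alone) and with OD (1.23 ± 0.132, FDR 5.74e-09). CoCl2 libraries exceeded OD libraries by 0.66 ± 0.113 (FDR 8.20e-06) in HT-29, a difference that did not pass on library size alone (0.17, FDR 0.180). In Caco-2 they were lower than OD libraries (-0.73 ± 0.104, FDR 3.15e-06). On the deposited log2(RPKM + 1) values, where a low level is compressed, no PRDM1 change against control exceeded the fold limit (-0.89 in Caco-2 with CoCl2, 0.94 and 0.57 in HT-29).

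**Figure D2:**
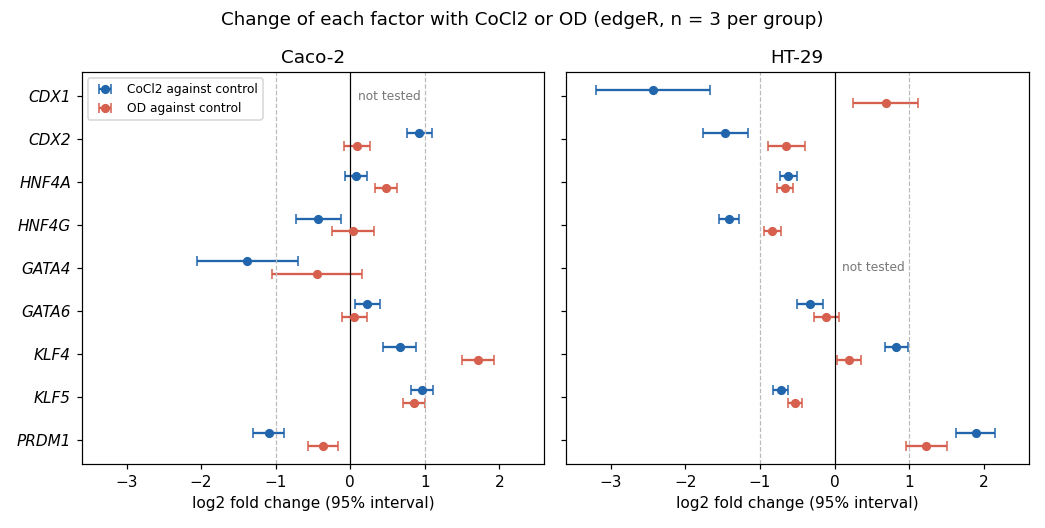
Log2 fold change of each factor against control with CoCl2 (blue) or OD (red) in Caco-2 (left) and HT-29 (right), with 95% intervals from edgeR and 3 libraries per group. Dashed lines mark the fold limit of 1. CDX2 and KLF5 lie right of 0 with CoCl2 in Caco-2 and left of 0 in HT-29, and PRDM1 does the reverse. For OD, CDX2 in Caco-2 is at 0.09 and is -0.061 on library size alone.

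Directly compared with each other at their own doses, CoCl2 and OD differed in the call of 1 of 8 factors in Caco-2, KLF4 lower with CoCl2, beside 11.7% of all genes (5.21% higher, 6.44% lower). The count in Caco-2 was 0 without OD replicate 1. It was 2, with GATA4 added, without CoCl2 replicate 1, OD replicate 2 or OD replicate 3. In HT-29 the 1 call of 8, CDX1 lower with CoCl2, stood beside 29.9% of all genes (10.8% higher, 19.2% lower). At the FDR alone, 1 factor was higher and 5 lower with CoCl2 than with OD in Caco-2, against 49.6% of all genes (24.4% higher, 25.2% lower). In HT-29 it was 2 higher and 5 lower, against 77.7% (37.1% higher, 40.6% lower). The 2 comparisons with control share their control libraries, so the agents' values are given side by side and their likeness was not tested.

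The response to an agent was compared between the lines as the log2 change in HT-29 minus that in Caco-2, over all 18 libraries. For CoCl2, 4 of the 7 factors measurable in both lines were called, 1 higher and 3 lower, beside 21.6% of all 17921 genes (7.79% higher, 13.8% lower). Those 17921 genes were not screened for the floor in each line, as the 7 factors were. Without that screen the share of factors called was 4 of 9 for each agent. At the FDR alone 1 was higher and 5 lower, beside 49.8% (21.1% higher, 28.6% lower). Those 4 were CDX2 (-2.50 ± 0.167, FDR 2.06e-14), KLF5 (-1.78 ± 0.0864, FDR 4.44e-18), HNF4G (-1.09 ± 0.140, FDR 4.49e-08) and PRDM1 (2.88 ± 0.166, FDR 4.36e-16). HNF4A (-0.80) and GATA6 (-0.67) passed the FDR under the fold limit, and HNF4A was called at -1.004 on library size alone. The KLF4 difference was 0.06, with an interval of -0.22 to 0.34, and it was -0.14 on library size alone and -0.039 without HT-29 control replicate 1. For OD, 4 factors were called, 1 higher and 3 lower, beside 15.2% of all genes (8.96% higher, 6.24% lower). At the FDR alone 1 was higher and 5 lower, beside 42.9% (20.9% higher, 22% lower). These were KLF4 (-1.54 ± 0.133, FDR 1.72e-11), KLF5 (-1.40 ± 0.0860, FDR 5.35e-15), HNF4A (-1.15 ± 0.0893, FDR 1.23e-12) and PRDM1 (1.58 ± 0.165, FDR 1.24e-09). CDX2 (-0.76) and HNF4G (-0.89) passed the FDR under the fold limit, and the GATA6 difference of -0.18 had an interval of -0.41 to 0.05. CDX1 and GATA4 passed the filter of this fit, but their fitted differences depend on the prior count and are not given, since each was at or under the floor in one line.

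**Figure D3:**
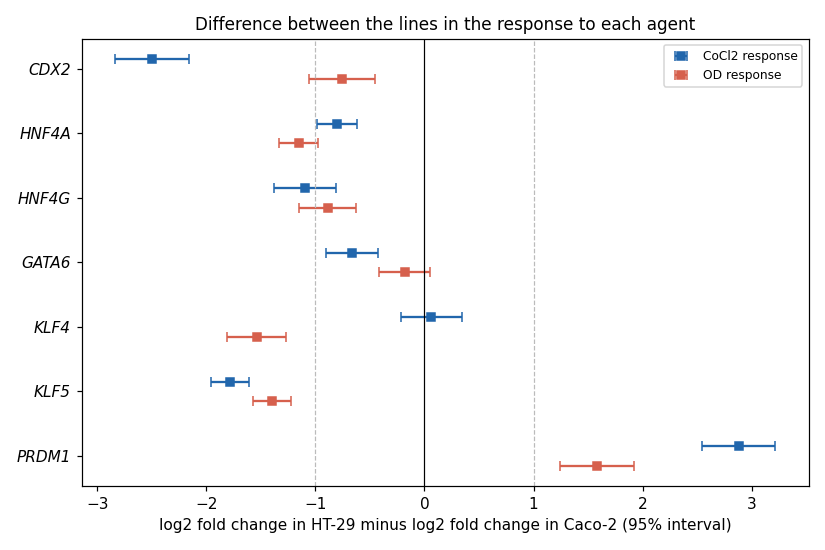
Log2 change in HT-29 minus log2 change in Caco-2 for the 7 factors measurable in both lines, with 95% intervals, for CoCl2 (blue) and OD (red). PRDM1 lies right of 1 for both agents and KLF5 left of -1 for both. KLF4 is near 0 for CoCl2, with a sign that is negative on library size alone, and left of -1 for OD.

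In control cells all 9 factors were called between the lines, beside 45.8% of all genes. They split into 4 higher and 5 lower in HT-29, beside 21.6% and 24.2% of all genes. The 4 higher in HT-29 were HNF4G (3.13 ± 0.0878 log2 units higher, FDR 3.18e-26), KLF4 (1.60 ± 0.0995, FDR 2.34e-16), KLF5 (1.57 ± 0.0620, FDR 6.75e-22) and CDX1. The CDX1 difference rests on 3 counts over the Caco-2 controls against 124 in HT-29, a ratio of 33.9 with an exact 95% interval of 11.3 to 167. The other 5 were higher in Caco-2. CDX2 differed by -3.50 (SE 0.100, FDR 5.72e-26), PRDM1 by -3.22 (SE 0.119, FDR 9.37e-23), HNF4A by -2.55 (SE 0.0651, FDR 2.14e-27) and GATA6 by -1.30 (SE 0.0805, FDR 2.04e-16), with GATA4 at 0 counts in HT-29 as given above. The CDX and HNF4 pairs thus split between the lines, with CDX2 and HNF4A on the Caco-2 side and CDX1 and HNF4G on the HT-29 side. The other pairs did not split, with GATA4 and GATA6 both higher in Caco-2 and KLF4 and KLF5 both higher in HT-29.

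Levels of different factors can be set against each other only per length. In Caco-2 controls, on RPKM computed here from GENCODE v44 exon lengths, KLF5 (53.4 ± 3.18, SD, n = 3) and HNF4A (53.1 ± 2.53) did not differ beyond their spread. They were followed by CDX2 (43.7 ± 1.96), GATA6 (16.4 ± 1.09), PRDM1 (5.56 ± 0.558), KLF4 (3.58 ± 0.0944), HNF4G (1.85 ± 0.0842) and GATA4 (0.525 ± 0.0506). In HT-29 controls KLF5 (149 ± 9.75) led by a wide margin. HNF4G (15.2 ± 0.841) came next, then KLF4 (10.2 ± 1.30) and HNF4A (8.54 ± 0.268), whose libraries overlapped, GATA6 (6.26 ± 0.334), CDX2 (3.65 ± 0.431), CDX1 (1.17 ± 0.272) and PRDM1 (0.552 ± 0.0649). The deposited HNF4A value is 1.40 times the one computed here, which would put HNF4A first in Caco-2 and above KLF4 in HT-29. With CoCl2, PRDM1 was at 2.61 ± 0.163 RPKM in Caco-2 and 2.08 ± 0.202 in HT-29.

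**Figure D4:**
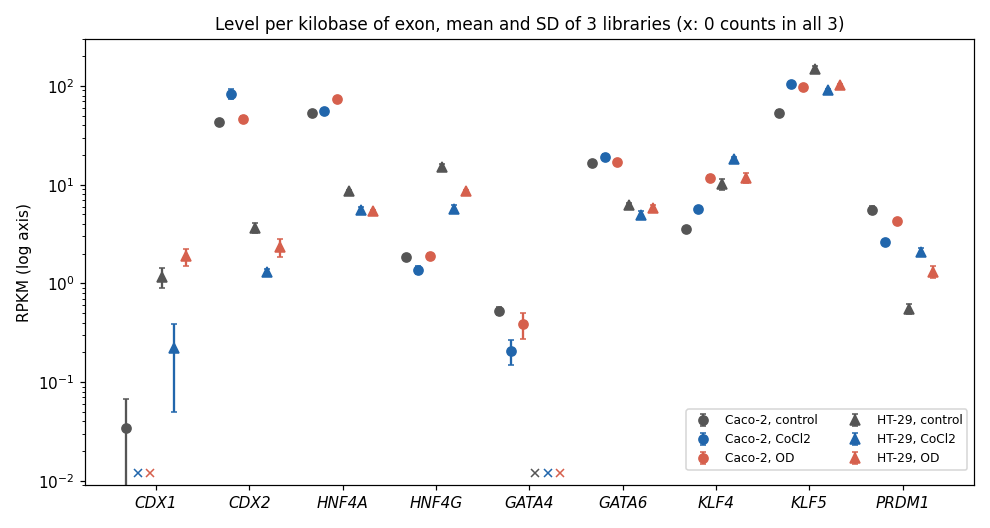
RPKM on a log axis for each factor in the 6 groups, as mean and SD of 3 libraries, with circles for Caco-2 and triangles for HT-29. Crosses at the foot mark groups with 0 counts in all 3 libraries, and the lower bar of CDX1 in Caco-2 controls leaves the axis. KLF5 is at 53.4 RPKM or more in all 6 groups, while CDX1 and GATA4 are each near or at 0 in one line.

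Other transcription factors of the intestinal epithelium, 25 genes chosen from general knowledge, gave a second view. In Caco-2, 1 was called higher and 4 lower of 22 tested with CoCl2, and 1 higher and 2 lower with OD. In HT-29, 1 was called higher and 9 lower of 21 with CoCl2, and 1 higher and 5 lower with OD. Of all genes, 9.13% were called higher and 14.2% lower with CoCl2 in Caco-2, 4.43% and 7.27% with OD, and in HT-29 17.4% and 23.9% with CoCl2 and 9.5% and 7.57% with OD. The median log2 changes of the list were -0.29, -0.01, -0.90 and -0.56 in that order. ELF3, an epithelial ETS factor, was called higher with CoCl2 in both lines (2.00 ± 0.0830 in Caco-2, 1.83 ± 0.0511 in HT-29) and with OD in Caco-2 (1.02 ± 0.0818). FOXA1, a pioneer factor of endoderm, went the other way, at -1.60 and -1.50 with CoCl2 in Caco-2 and HT-29 and at -1.17 with OD in HT-29. FOXA3 (-2.54) and NR5A2 (-1.94), a nuclear receptor of crypt renewal, were called lower with CoCl2 in HT-29. ASCL2, a factor of intestinal stem cells, was called lower with OD in HT-29 (-2.01), where the summed level of the 3 stem cell markers, of which 1 was detected, was 2.66 to 3.28 CPM in controls and 0.550 to 0.699 with OD. The part of that marker change in these results was not tested.

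Relatives in the same protein families moved in both directions. Of 18 tested in Caco-2, 1 was called higher and 2 lower with CoCl2 and 4 higher and 1 lower with OD. Of 19 in HT-29, 3 were called higher and 4 lower with CoCl2 and 2 higher and 1 lower with OD. Of all genes, 23.4% (CoCl2) and 11.7% (OD) were called in Caco-2 in either direction, against 41.3% (CoCl2) and 17.1% (OD) for HT-29. KLF6 was called higher in Caco-2 with CoCl2 (2.47 ± 0.0762) and with OD (1.04 ± 0.0748), and KLF11 with OD (1.27 ± 0.0895). In HT-29 KLF9 was called higher with OD (2.15 ± 0.152) and KLF10 lower (-1.03 ± 0.0579). GATA2 and GATA3, the blood and luminal relatives of GATA6, were called lower with CoCl2 in HT-29 (-2.40 ± 0.0835 and -2.66 ± 0.242). PRDM10 was called higher there with both agents, at 2.12 ± 0.0786 with CoCl2 and 1.29 ± 0.0809 with OD.

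Of 25 intestinal genes known as targets of CDX, HNF4 or GATA factors, all were testable in Caco-2 and 16 in HT-29. With CoCl2 in Caco-2, 4 were called higher and 5 lower, beside 9.13% and 14.2% of all genes. Among them were APOA4 (2.22 ± 0.160), a chylomicron protein, and SLC15A1 (1.55 ± 0.0883), the peptide transporter, against APOB (-1.89 ± 0.0891), the scaffold of chylomicrons, and LCT (-1.47 ± 0.166), the gene of lactase. With OD in Caco-2, 6 were called higher and 0 lower, with 15 higher and 3 lower at the FDR alone. Of all genes, 4.43% were called higher and 7.27% lower in that comparison, and 25.7% and 24.7% passed the FDR alone. SLC15A1 (1.97 ± 0.0877), CEACAM5 (1.58 ± 0.0952), KRT20 (1.49 ± 0.135) and GPA33 (1.46 ± 0.113) were the largest among those with enough counts, and the list's median was 0.35. In HT-29, 1 was called higher and 6 lower with CoCl2 (17.4% and 23.9% of all genes), and 3 higher and 2 lower with OD (9.5% and 7.57% of all genes). VIL1, the brush border protein villin, was called lower with both agents (-2.62 ± 0.0599 with CoCl2, -1.15 ± 0.0525 with OD). KRT20, a keratin of differentiated colonocytes, was called higher with both (1.23 ± 0.0560 and 1.39 ± 0.0559), and CEACAM5 with OD (3.08 ± 0.0722).

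**Figure D5:**
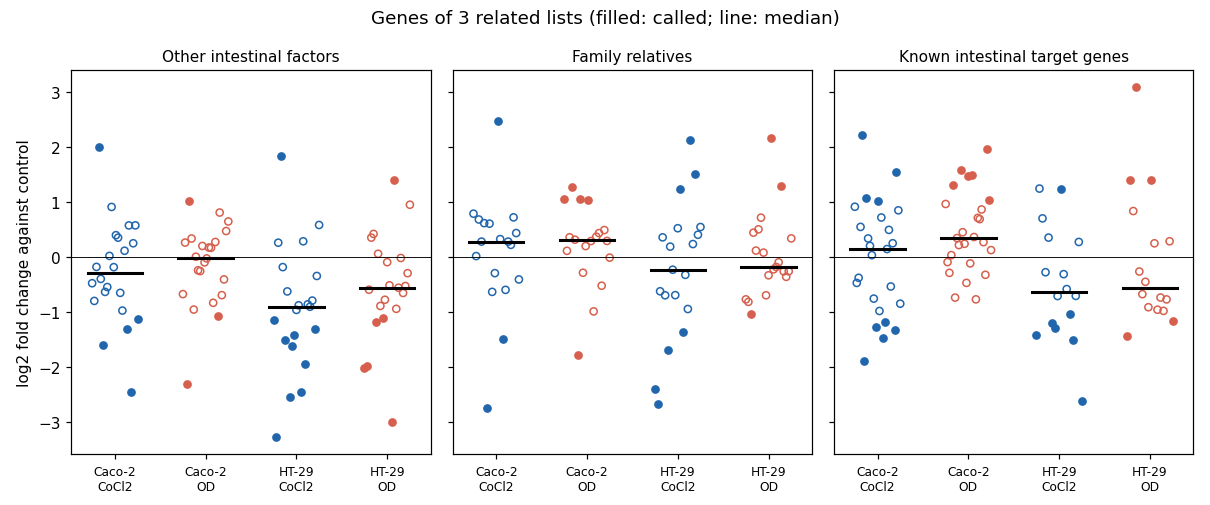
Log2 fold change against control (vertical axis) for the tested genes of 3 related lists, by line and agent. Filled points are called at FDR under 0.05 and absolute log2 change over 1, open points are not, and black lines are medians. The medians of the other intestinal factors lie at -0.90 and -0.56 in HT-29 and at -0.29 and -0.01 in Caco-2.

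Some annotated genes share sequence with these factors, and the counting tool and its use of strand are not given in the sources used here. ATG5 runs antisense over PRDM1 and held 858 to 1578 counts in HT-29 controls, where PRDM1 held 51 to 111. With CoCl2 in HT-29, ATG5 rose by 0.64 ± 0.0501 (FDR 4.06e-12) and PRDM1 by 1.89, while in Caco-2 ATG5 rose by 0.26 (FDR 0.0148) as PRDM1 fell. GATA6-AS1 overlaps the first bases of GATA6 on the other strand. In HT-29 it went from 3.40 ± 0.540 CPM (SD, n = 3) in controls to 0.720 ± 0.0952 with CoCl2, a call of -2.20 ± 0.251 (FDR 8.58e-09). HNF4A-AS1 had 45 to 68 counts in Caco-2 controls and 0 to 4 in any HT-29 library, with no change in Caco-2 that passed the test (0.27 with CoCl2, -0.31 with OD). The share of reads that crossed between these pairs was not tested.

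The genes most like each factor were found by Pearson's r of log2 CPM over the 18 libraries after each line's mean was removed, among 9667 genes, as a description without a test. CDX2 was nearest to HES1 (0.960), PARP16 and MYC, HNF4A to KIF3B (0.954), MYORG and KIF4A, and HNF4G to CLDN1 (0.983), PHF19 and FUT4. KLF4 was nearest to MFN2 (0.972), PAM and MSH6, KLF5 to AKAP7 (0.968), CLIC5 and TCF7L2, and PRDM1 to ACSL1 (0.980), TRPV3 and BCL2L11. GATA6 had the weakest best match, AGO1 (0.905), followed by TBCCD1 and TXNDC15. Between the factors themselves, r was -0.93 for CDX2 and PRDM1, -0.84 for KLF5 and PRDM1, 0.81 for CDX2 and GATA6 and 0.78 for HNF4A and HNF4G. All of these share the same 18 libraries and their scaling.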

How the data were processed

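Gene counts for 18 mRNA libraries were taken as deposited. Per the study's methods and processing notes, the authors checked single-end reads with FastQC 0.11.9, trimmed them with cutadapt 2.10, aligned them to GRCh38.p13 with STAR 2.7.5b and counted genes on a GENCODE annotation. A stranded kit was used, and the counting tool and its strand setting are not given in the sources used here. The second table deposited by the authors holds log2 values. The submitters list edgeR 3.30.3 for it. The values were found to be log2(RPKM + 1) on TMM-scaled library sizes within each line: after removal of 1 scalar per library (0.972 to 1.04), 100% of the values compared matched the counts within 1%. It lists 14230 genes, without CDX1 and GATA4. The miRNA tables were not used.

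Each line was fitted over its 9 libraries, and comparisons between lines over all 18, with the two-sided quasi-likelihood test of edgeR 4.0.16 (R 4.3.3), TMM, filterByExpr and a term for group only. P-values were adjusted by Benjamini-Hochberg over all genes tested. Alternatives were DESeq2 1.42.0, library size alone, no filter, limma-trend (limma 3.58.1) on the deposited log2 values, all 18 libraries in 1 fit, a replicate block, no fold limit and each library left out in turn. On simulated data for CoCl2 against control in Caco-2 (15649 genes), 95.9% of 97 genes changed by 1.5 log2 units and 100% of 100 changed by 2.5 were recovered. In HT-29 (15272 genes) it was 93.7% of 95 and 100% of 99. Few genes were changed, up and down alike, at a fixed dispersion, so this check could not address the effect of scaling.

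Named genes were the 9 factors, genes overlapping them, the 3 genes most like each, HIF targets and, per list and agent, up to 4 called genes with the largest absolute change and a mean count of at least 50, of which some are given. The factors and lists were chosen with earlier results of these data known. Groups came from the sample labels, and 0 columns of per-sample values were left without a sample. No 2 replicates agreed within counting error (lowest chi-square per degree of freedom 1.96). Figures were drawn from the tabulated values.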

Additional observations from a re-analysis of the deposited data

Results flagged for a closer look

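The response to an agent differed between the lines at the FDR and beyond the fold limit for 8 pairs of factor and agent, by the edgeR interaction test over all 18 libraries. These were 4 of the 9 factors in that fit for each agent. Of all 17921 genes in it, 21.6% were called for CoCl2 and 15.2% for OD. For CoCl2 the log2 change in HT-29 minus that in Caco-2 was -2.50 for CDX2, -1.09 for HNF4G, -1.78 for KLF5 and 2.88 for PRDM1. For OD it was -1.15 for HNF4A, -1.54 for KLF4, -1.40 for KLF5 and 1.58 for PRDM1. Of these 8, CDX2, KLF5 and PRDM1 with CoCl2, and HNF4A, KLF5 and PRDM1 with OD, passed the FDR in opposite directions in the 2 lines. GATA6 with CoCl2 did so too (0.23 in Caco-2, -0.33 in HT-29), with a line difference under the fold limit (-0.67). Its Caco-2 change was -0.10 on library size alone. HNF4G fell in both lines with CoCl2, by more in HT-29, and its difference was -0.99 in DESeq2. Line and culture state cannot be told apart in any of these values.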

How the results depend on the processing

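Leaving out each library in turn kept the number of factors called at 2, 1, 4 and 1 for CoCl2 and OD in Caco-2 and then in HT-29, at 1 between the agents in HT-29, at 4 for each difference between the lines and at 9 between the controls, while between the agents in Caco-2 it ran from 0 to 2. With library size alone in place of TMM, 2 factors were called between the agents in Caco-2 (GATA4 added, at -1.10) and 3 in HT-29, 6 in place of 4 with CoCl2 in HT-29, and 5 in place of 4 for the CoCl2 line difference. In that order, all genes called numbered 2126, 6062, 7545 and 4324 on library size alone, in place of 1868, 4734, 6524 and 3875. That setting turned HNF4A (-0.25) and GATA6 (-0.10) with CoCl2 in Caco-2, CDX2 (-0.061), HNF4G (-0.11) and GATA6 (-0.10) with OD in Caco-2, KLF5 between the agents in Caco-2 (-0.065), HNF4A between the agents in HT-29 (-0.45) and the KLF4 line difference for CoCl2 (-0.14). HNF4A between the agents in HT-29 was also negative without a filter (-0.00738), in limma-trend (-0.023) and with all 18 libraries in 1 fit (-0.048), and the KLF4 line difference ran from -0.039 (without HT-29 control replicate 1) to 0.158 (without HT-29 control replicate 3). The all-gene shift on library size was -0.17 and -0.50 between the agents and -0.20 for the CoCl2 line difference. The share of calls that were higher went from 39.1% to 19.7% and from 37.9% to 23.3% for CoCl2 and OD in Caco-2, from 42.1% to 17.2% and from 55.7% to 43.4% in HT-29, from 44.7% to 28.3% and from 36.0% to 12.9% between the agents, and from 36.0% to 23.2% for the CoCl2 line difference.

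Limma-trend on the deposited values, with its pseudocount of 1, called 0 factors in Caco-2 with CoCl2, and in HT-29 2 (CoCl2) and 0 (OD), and 0 and 0 between the agents. These values lack CDX1 and GATA4. GATA4 in Caco-2 and CDX1 in HT-29, also between the agents, therefore could not be called in this setting. Limma-trend called 1098, 381, 2520 and 744 genes in all against control and 341 and 1455 between the agents. Without the fold limit the factors numbered 7, 4, 8, 7, 6 and 7, and all genes 10370, 8084, 13097, 10876, 7957, 12286, 8916, 7682 and 14175, the last 3 for the line differences and the controls.

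The replicate numbers did not pair the samples: same-numbered libraries correlated at -0.0374 to 0.0519 in Caco-2 and -0.0238 to 0.0351 in HT-29, and 14 of 36 correlated best with their own number. With the replicate block the factors called against control were again 2, 1, 4 and 1, and no factor changed its call. CDX1 in Caco-2 and GATA4 in HT-29 were at or under the floor in every library, and both had low counts in the other line. The causes of the changes listed here were not tested.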

Other observations

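Markers of cell types other than enterocytes also differed between groups. The 3 hepatocyte markers ALB, AFP and TTR, genes that HNF4A is known to drive in liver, summed to 8190 to 9504 CPM in Caco-2 controls. They summed to 6543 to 7443 CPM in CoCl2 libraries, 6078 to 6710 CPM in OD libraries and at most 4.57 CPM in any HT-29 library. Goblet cell markers summed to 51.3 to 58.8 CPM in HT-29 controls, 21.0 to 27.2 with CoCl2 and 24.3 to 28.7 with OD. Stem cell markers in Caco-2 went from 35.4 to 40.0 CPM in controls to 8.28 to 10.3 with CoCl2 and 14.4 to 15.3 with OD. Both Paneth cell markers, DEFA5 and DEFA6, were at 0 or near it in all groups.

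MIR3646, a short annotated gene inside HNF4A on the same strand, held 1 to 11 counts in Caco-2 controls and 19 to 39 with CoCl2 (2.16 ± 0.452 log2 units, SE, FDR 0.000196). The mRNA libraries do not measure mature miRNAs, and the source of these reads was not tested.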
